A study of Mus musculus with 32 samples.

Results

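The 8 genes described here make up the natriuretic peptide system of the mouse heart. Nppa, Nppb and Nppc encode the atrial, B-type and C-type peptides, Npr1, Npr2 and Npr3 encode their receptors, and Corin and Furin encode proteases that cut the precursors. They were chosen by name among the 36409 gene names on a 1-colour Agilent expression array, and each was measured by 1 probe. Of the 8 genes, 7 passed a filter on dim probes and were tested among 27532 genes, and Nppc did not pass.

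Natriuretic peptides are hormones that lower blood volume and pressure. Heart muscle cells store pro-ANP, the product of Nppa, mostly in the atria, and Corin, a protease anchored in the muscle cell membrane, cuts it into active ANP. ANP and BNP act through the receptor NPR-A (Npr1), and CNP acts through NPR-B (Npr2). Both receptors make the second messenger cGMP, whereas NPR-C (Npr3) removes the peptides from the circulation. Nppa and Nppb RNA in the ventricle are textbook markers of cardiac load and hypertrophy.

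The study exposed C57BL/6 mice to aggressor mice to model posttraumatic stress disorder and measured RNA of whole heart tissue, with 1 array for each of 32 mice. Stressed mice spent 6 hours a day in a mesh box in an aggressor's cage, with brief attacks, for 5 days (T5) or 10 days (T10), followed by 1 (R1), 10 (R10) or 42 (R42) days of rest. Control mice of the same strain spent that time in mesh boxes in a cage with no aggressor. This gave 4 conditions, namely T5R1, T10R1, T5R10 and T10R42, with 4 stressed and 4 control hearts apiece, taken from different mice. The labels used here give no age and no sex.

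Values are log2 signals relative to the 75th percentile of signals on the same array, called log2 levels below, and they cannot be set against the level of another gene's probe. Changes are stressed minus control with a standard error (SE, n = 4 per arm). Each adjusted p comes from limma, fitted over all 32 arrays, with Benjamini-Hochberg adjustment over all tested genes, and a gene is said to have risen or fallen only where it is below 0.05. The 75th percentile signal ran from 237.2 to 498.9 over arrays, and 28821 to 40707 probes were well above background. The 8 arrays of a condition shared 1 slide, with controls in the first columns and stressed hearts in the last, so condition and slide, and stress and array column, cannot be told apart. The T10R1 arrays were also scanned on a different day from those of the other conditions, so T10R1 and scan day cannot be told apart. All 9 heart muscle markers examined were above background on every array. Lung transcripts stood out in 4 hearts, with a mean of 5 lung markers 1.2 to 4.07 above the mean of all hearts, against at most 0.34 in the other hearts. These were T5R1 control replicate 4, T5R1 stressed replicate 2, T10R42 control replicate 1 and T10R42 stressed replicate 4. Of 7 listed lung markers 5 were tested, and 3 of those were above background on all 32 arrays. The Sftpc probe was above background on 8 arrays and the Napsa probe on 25.

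The probe sequences show what was measured for the protease that fell and for both cardiac peptides, the genes the results below turn on. Each is the first 30 bases of a 60-base probe, 5′ to 3′, copied from the deposited array files, with the position of the whole probe on mm9 as the array design gives it.
Corin, chr5:72692288-72692347, minus strand: ttaagcccagtggcttagggggcacatttc
Nppa, chr4:147376024-147376083, plus strand: cttcctgccttcatctatcacgatcgatgt
Nppb, chr4:147360489-147360548, plus strand: ccaaaaagagtccttcggtctcaaggcagc
Over the 28 pairs of the 8 probes, the longest run of bases shared on either strand was 10, between the probes of Nppa and Npr2. The Nppa probe was printed as 10 spots on each array and the others as 1 spot. The other probes lie at chr1:88563020-88563079 (Nppc, minus strand), chr3:90259171-90259664 (Npr1, minus strand), chr4:43664035-43664094 (Npr2, plus strand), chr15:11769937-11769996 (Npr3, minus strand) and chr7:87534082-87534141 (Furin, minus strand). The Npr1 probe covers 494 bases of the genome with 60 bases of its own, so its target is split in the genome.

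Corin fell in the hearts examined 1 day after 5 days of stress, and it was the only one of the 7 tested genes that passed the test there. Log2 levels of Corin were 3.02, 2.93, 2.84 and 2.85 in the 4 T5R1 controls. In the 4 stressed hearts they were 2.26, 2.33, 2.16 and 2.23. Every stressed heart lay below every control heart, as for 15.7% of tested genes in this comparison, and both arms were narrow. The change was -0.67 ± 0.095 (SE, 95% interval -0.86 to -0.47, limma adjusted p = 3.95e-05), which put Corin RNA at 63.0% of the control level. In whole tissue, fewer cells of a type and less RNA per cell cannot be told apart. Of all tested genes, 8.43% fell and 13.7% changed in either direction in this comparison, and the median change over all genes was -0.12. That split depends on the scaling, since 2320 of 3778 called genes were lower here, against 1224 of 3060 with quantile normalisation; Corin's change with that normalisation was -0.63. Corin was 1 of 7 genes called, and 131 of 27532 genes had a smaller p.

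In the T10R1 hearts, with 10 days of stress and 1 day of rest, Corin also fell. Controls had log2 levels of 2.73, 2.88, 2.68 and 2.79. Stressed hearts had 2.19, 2.48, 2.33 and 2.49. Again every stressed heart lay below every control, as for 5.47% of tested genes here. The change was -0.39 ± 0.095 (SE, 95% interval -0.59 to -0.20, limma adjusted p = 0.0381), or 76.1% of control. Only 0.36% of tested genes fell in this comparison and 1.13% changed in either direction, and Corin was the 1 gene of 7 called. This call lies close to the threshold. It was lost with quantile normalisation (limma adjusted p = 0.0779, change -0.35), in the authors' value table (0.052) and when any of 7 of the 8 hearts was left out; it was kept only without stressed replicate 2.

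After longer rest, Corin did not pass the test. In T5R10 the controls had log2 levels of 2.74, 2.63, 3.21 and 3.12. The stressed hearts had 2.80, 2.91, 2.91 and 2.87, which lie between the control extremes. The change there was -0.05 ± 0.095 (SE, 95% interval -0.25 to 0.14, limma adjusted p = 0.838). In T10R42 the controls had 2.98, 3.05, 2.93 and 2.98. The stressed hearts had 2.96, 3.08, 2.93 and 2.85, with 1 above and 1 below all controls. The change was -0.03 ± 0.095 (SE, limma adjusted p = 0.904). Neither of these conditions had any of the 7 genes called by limma, or any at an unadjusted p below 0.05, and 0.0763% of all tested genes were called in T5R10 and 0.897% in T10R42. These background counts are unstable. The 21 genes called in T5R10 became 1088 without control replicate 4 and stressed replicates 1 and 2, whose scans carry a quality mark in the file headers, and 606 without stressed replicate 2. The 247 in T10R42 became 5 without the 4 hearts with lung transcripts and 1444 without stressed replicate 2. Both became 0 with the arrays of the condition alone.

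The difference of the stress effects was tested directly. Corin's effect in T5R10 exceeded that in T5R1 by 0.61 ± 0.13 (SE, limma adjusted p = 0.0135), in a comparison in which 2.49% of tested genes were called. Fitted on the arrays of these 2 conditions alone, the same difference had a limma adjusted p of 0.0965. Between T10R42 and T10R1 the difference was 0.36 ± 0.13 (SE, 95% interval 0.09 to 0.64, limma adjusted p = 0.107), where 4.12% of genes were called. The longer exposure did not differ from the shorter one beyond error at 1 day of rest, with T10R1 minus T5R1 at 0.27 ± 0.13 (SE, 95% interval -0.01 to 0.55, limma adjusted p = 0.293) and 0.592% of genes called. None of the other 6 tested genes passed in any of these differences; Npr2 (0.31) and Furin (0.39) had an unadjusted limma p of 0.0196 and 0.0276 for T5R10 minus T5R1. Over the mean of the 4 stress effects Corin was lower by -0.29 ± 0.048 (SE, limma adjusted p = 0.000417), again as the 1 gene of 7, where 12.6% of genes were called.

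**Figure D1:**
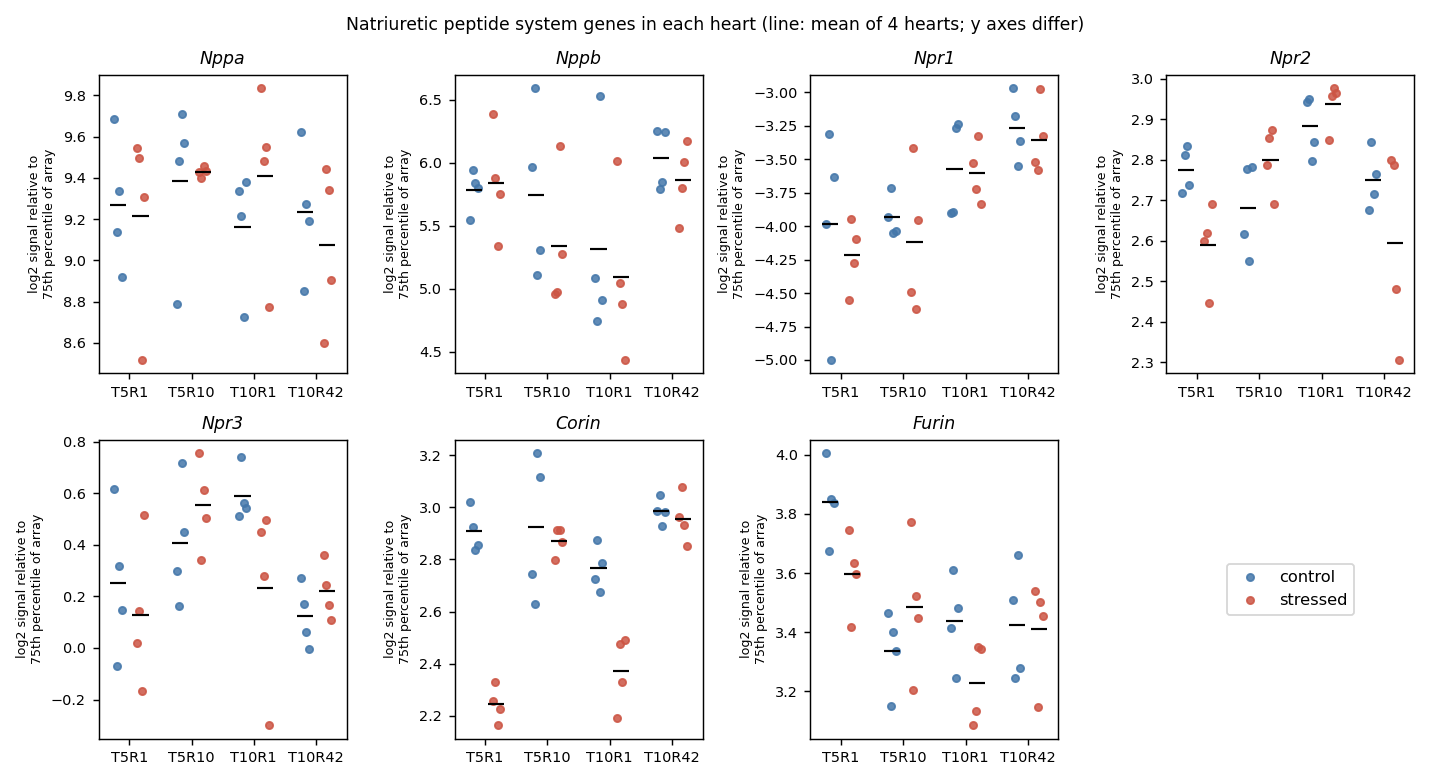
Log2 signal relative to the array's 75th percentile (y axes, each with its own range) for the 7 tested genes in each of 32 hearts, by condition (x axes), with controls in blue, stressed hearts in red and a line at the mean of 4 hearts. Corin's stressed hearts lie below all controls in T5R1 and T10R1 and among them in T5R10. In T10R42 Corin's arms overlap, with 1 stressed heart above and 1 below all controls. The arms of Nppa and Nppb overlap in every condition.

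Heart muscle markers (Tnnt2, Tnni3, Actn2, Myh6, Ryr2, Mybpc3, Actc1, Pln and Ttn) were therefore set beside Corin. In T5R1 all 9 were measured lower, with a median of -0.18, and 1 fell, Tnni3, which encodes cardiac troponin I (-0.32 ± 0.099, SE, limma adjusted p = 0.0328). Of all tested genes 8.43% fell in this comparison. Their mean per heart, relative to the mean of all hearts, was 0.08 to 0.12 in T5R1 controls and -0.21 to 0.04 in stressed hearts. In T10R1, 7 of the 9 were measured lower and none was called by limma (2 at an unadjusted p below 0.05), with a median of -0.13. Of 10 fibroblast markers, 5 rose in T5R1 and 6 in T10R1, where 13.7% and 1.13% of all tested genes were called. They were led in both by the type I collagen gene Col1a1 (2.53 ± 0.30 and 2.01 ± 0.30, SE, limma adjusted p = 3.78e-06 and 0.000748). Gsn and Dpep1 were measured lower in T5R1. Their T10R1 changes were 0.05 and 0.56, and T10R1 minus T5R1 was 0.33 and 0.73. Of 10 endothelial markers none was called by limma in either condition (3 at an unadjusted p below 0.05 in T5R1 and 0 in T10R1), and of 9 smooth muscle and pericyte markers 1 fell in T5R1. Of 7 ventricular markers 1 rose in T10R1, Myh7, which is also on the list of cardiac load and fetal genes below. In T5R1 the ventricular markers did not pass the test. The 2 with the smallest p there were Myh7, measured higher (1.05, limma adjusted p = 0.0681), and Myl3, measured lower (-0.29, limma adjusted p = 0.114). The part of these shifts in the fall of Corin was not tested. Without the 4 hearts with lung transcripts, the T5R1 change of Corin was -0.71 (limma adjusted p = 0.000625).

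Furin, which encodes a proprotein convertase that cuts the BNP and CNP precursors, did not pass the test in any condition. In T5R1 its log2 levels were 4.0, 3.68, 3.85 and 3.84 in controls. Stressed hearts had 3.74, 3.42, 3.63 and 3.60, with 1 stressed heart above the lowest control. The change of -0.24 ± 0.12 (SE, 95% interval -0.49 to 0.00) had a limma adjusted p of 0.170. In T10R1 Furin differed by -0.21 ± 0.12 (SE, limma adjusted p = 0.475), in T5R10 by 0.15 and in T10R42 by -0.01. T5R1 controls had the highest Furin of the control groups, 3.68 to 4.0 against 3.15 to 3.66 in the other 3, a contrast that coincides with the slides.

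Nppa, the gene of ANP, did not pass the test in any condition, and it varied widely between hearts of a group. In T5R1 its log2 levels were 9.68, 9.14, 9.34 and 8.92 in controls. The stressed hearts had 9.54, 9.50, 8.52 and 9.31, so the lowest value was a stressed heart and the highest a control. The change was -0.05 ± 0.25 (SE, 95% interval -0.56 to 0.46, limma adjusted p = 0.908). With quantile normalisation and in the authors' table the sign turned, to 0.16 and 0.18.

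In T10R1, Nppa stood at 9.33, 9.21, 8.72 and 9.38 in controls. Stressed hearts had 9.84, 9.48, 9.55 and 8.77, with 3 of them above every control and 1 near the lowest. The change was 0.25 ± 0.25 (SE, 95% interval -0.26 to 0.76, limma adjusted p = 0.727). In T5R10 the controls spread over 8.79, 9.48, 9.71 and 9.57. The stressed hearts stood at 9.43, 9.40, 9.46 and 9.43, a standard deviation of 0.025 against 0.41 in controls, and the change was 0.04 (limma adjusted p = 0.952). In T10R42 controls had 9.62, 8.85, 9.28 and 9.19 and stressed hearts 8.60, 9.44, 9.34 and 8.90, with a change of -0.16 (limma adjusted p = 0.774).

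The spread of Nppa between hearts was larger than the spot-to-spot error of the array. The Nppa spots of an array had a standard deviation of 0.031 to 0.071, with a median of 0.046, against 0.36 between hearts of a group. This spot error leaves out 24 Nppa spots flagged as outliers over all arrays, so it is that of the spots kept. Mean spot signals lay between 88918 and 410420 and saturation at 779040 or above, so no spot was saturated.

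Nppb, the gene of BNP, likewise did not pass the test anywhere, and its within-group standard deviation of 0.53 was the largest of the 7 genes. Log2 levels in T5R1 were 5.54, 5.94, 5.84 and 5.80 in controls. Stressed hearts had 6.39, 5.88, 5.34 and 5.76, which include both the highest and the lowest heart of the condition. The change was 0.06 ± 0.36 (SE, 95% interval -0.68 to 0.80, limma adjusted p = 0.932). In T10R1 the controls had 5.09, 4.75, 6.53 and 4.91, with 1 heart far above the others. The stressed hearts had 6.02, 5.05, 4.88 and 4.43, also with 1 high heart, and the change was -0.22 (limma adjusted p = 0.847). Without single hearts the T10R1 change ran from -0.53 to 0.18, so its direction rests on which heart is included. In T5R10 the change was -0.41 ± 0.36 (SE, limma adjusted p = 0.636) and in T10R42 -0.17 (limma adjusted p = 0.845).

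Nppc, the gene of CNP, a peptide best known from endothelium, bone and brain, was well above background on 0 of 32 arrays. Its signal ran from 2.13 to 15.7, and it was not tested.

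Among the receptors, Npr1 was dim. Its probe was well above background on 26 of 32 arrays, and in T5R1 on 2 of 4 in each arm, so its T5R1 change of -0.23 ± 0.27 (SE, limma adjusted p = 0.587) rests partly on values at the edge of detection. Log2 levels there were -3.98, -3.31, -5.0 and -3.64 in controls and -4.55, -3.95, -4.28 and -4.09 in stressed hearts. The arms overlapped. Changes in T5R10, T10R1 and T10R42 were -0.19, -0.03 and -0.09.

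Npr2, the CNP receptor, was the most even of the 7 genes, with a within-group standard deviation of 0.12. In T5R1 its log2 levels were 2.72, 2.81, 2.83 and 2.74 in controls. Stressed hearts had 2.60, 2.62, 2.45 and 2.69, all below every control. This change of -0.19 ± 0.087 (SE) did not pass the test (limma adjusted p = 0.152), and all 4 stressed hearts lay below all controls for 15.7% of tested genes in this comparison, Npr2 and Corin being 2 of the 7. The change in T5R10 was 0.12 and in T10R1 0.05. In T10R42 stressed hearts had 2.80, 2.79, 2.48 and 2.31 against 2.68, 2.84, 2.72 and 2.76 in controls, with 2 stressed hearts among the controls and 2 below (-0.16 ± 0.087, SE, limma adjusted p = 0.337).

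Npr3, the clearance receptor, was measured lower in T10R1 without passing the test. Its log2 levels were 0.51, 0.74, 0.56 and 0.54 in controls. Stressed hearts had 0.45, 0.28, 0.49 and -0.30, all below every control but with 2 of them close to the control range and 1 far below it. The change was -0.36 ± 0.16 (SE, 95% interval -0.69 to -0.03, limma adjusted p = 0.331), and the arms separated in this direction for 5.47% of tested genes, Npr3 and Corin being 2 of the 7. In T5R1, T5R10 and T10R42 Npr3 differed by -0.12, 0.15 and 0.09, each with overlapping arms.

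**Figure D2:**
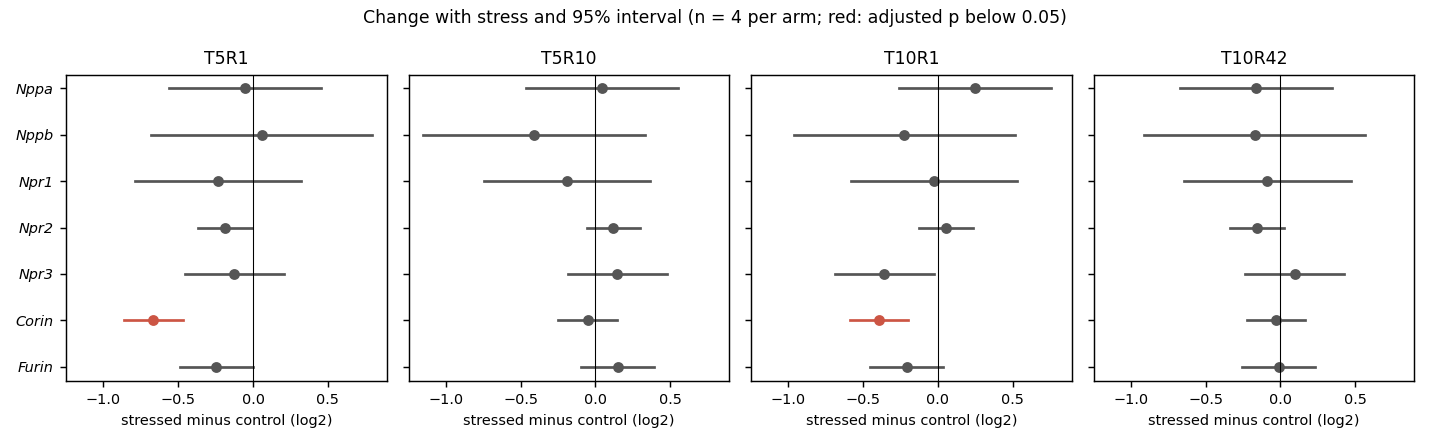
Stressed minus control on the log2 scale (x axes) for the 7 tested genes (y axes) in each condition, with points for the estimates, lines for 95% intervals from limma (n = 4 per arm) and red for an adjusted p below 0.05. Corin is the red gene in T5R1 (-0.67) and T10R1 (-0.39); intervals of Nppb are the widest, and those of Npr2 the narrowest.

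Levels in control hearts are given by condition, which is also the slide and, for T10R1, the scan day, and carry no test. Corin averaged 2.99 ± 0.049 in T10R42, 2.92 ± 0.28 in T5R10, 2.91 ± 0.083 in T5R1 and 2.77 ± 0.086 in T10R1 (SD, n = 4), with overlapping neighbours in this order. For Nppa, the control means went from 9.39 in T5R10 down to 9.16 in T10R1, for Nppb from 6.04 in T10R42 to 5.32 in T10R1, and for Npr3 from 0.59 in T10R1 to 0.13 in T10R42. Neighbouring control groups overlapped for each of these, and also for Npr1 and Npr2; for Furin T5R1 stood apart from its neighbour. Groups further apart in the order could separate fully. Corin controls ran from 2.93 to 3.05 in T10R42 and from 2.68 to 2.88 in T10R1. Npr3 controls ran from 0.51 to 0.74 in T10R1 and up to 0.27 in T10R42.

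A list of genes known to respond to load on the heart was set beside the peptide genes. Of 13 tested genes of this list of cardiac load and fetal genes, which held neither Nppa nor Nppb, 6 rose and 0 fell in T5R1, with a median of 0.87. Of all tested genes 13.7% were called there. Cilp, a matrix protein (2.78 ± 0.32, SE), Postn, periostin (3.02 ± 0.42), Acta1, skeletal actin (1.74 ± 0.28), and Sprr1a, a small stress-induced protein (3.1 ± 0.56), had the smallest p, with limma adjusted p from 2.67e-06 to 0.000526. Ankrd1, a muscle repressor that responds to stretch, also rose (0.87 ± 0.23, SE, limma adjusted p = 0.0119). In T10R1, 4 of the 13 rose: Cilp (2.69), Myh7, the beta-myosin heavy chain (2.73 ± 0.39, SE, limma adjusted p = 0.000382), Acta1 (1.38) and Postn (2.05). Of all tested genes 1.13% were called in T10R1. None of the 13 was called by limma in T5R10 or T10R42, where 3 and 1 had an unadjusted p below 0.05. In T5R10, Myh7 (1.62 ± 0.39) and Cilp (1.36 ± 0.32) were still measured higher (SE, limma adjusted p = 0.0814 for both). In T10R42 the gene was Atp2a2, measured higher (0.25 ± 0.081, SE, limma adjusted p = 0.0968). The list also holds genes of adult muscle such as Myh6, Atp2a2 and Ryr2.

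Between hearts of a group, Nppa varied with atrial markers. For each heart the deviation of a gene from its group mean was set against the mean deviation of each of 8 marker lists, 56 relations for the 7 genes. These relations were chosen after the data had been seen, which limits the weight of their p-values. Nppa and the mean of 13 atrial muscle markers had a Pearson r of 0.85 and a Spearman rho of 0.82 over 32 hearts (permutation within groups, two-sided p = 1e-05, the smallest that 100000 permutations can give; adjusted p = 0.00056 for both). Without the 2 hearts with the most extreme Nppa, r was 0.82. Within conditions of 8 hearts it was 0.71 in T5R1, 0.96 in T5R10, 0.94 in T10R1 and 0.93 in T10R42. The 4 hearts with the lowest Nppa deviations all had an atrial marker mean below that of their group. With the load list Nppa had r = 0.49 and rho = 0.51 (permutation adjusted p = 0.175 and 0.108).

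The same relations were computed for Nppb. Its r with the load list was 0.58 and rho 0.51 (permutation p = 0.00125 and 0.0102; adjusted p = 0.035 and 0.185), so the relation passed by Pearson's r and not by rank. It was 0.52 without the 2 most extreme hearts, and 0.93, 0.41, 0.72 and 0.28 within T5R1, T5R10, T10R1 and T10R42. With the atrial markers Nppb had r = 0.05 (permutation adjusted p = 0.959). Of the 56 relations, those of Nppa with atrial markers and of Nppb with the load list passed by r, and only the former by rho. The difference between Nppa and Nppb in these relations was not tested, and Mybphl is on both lists.

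**Figure D3:**
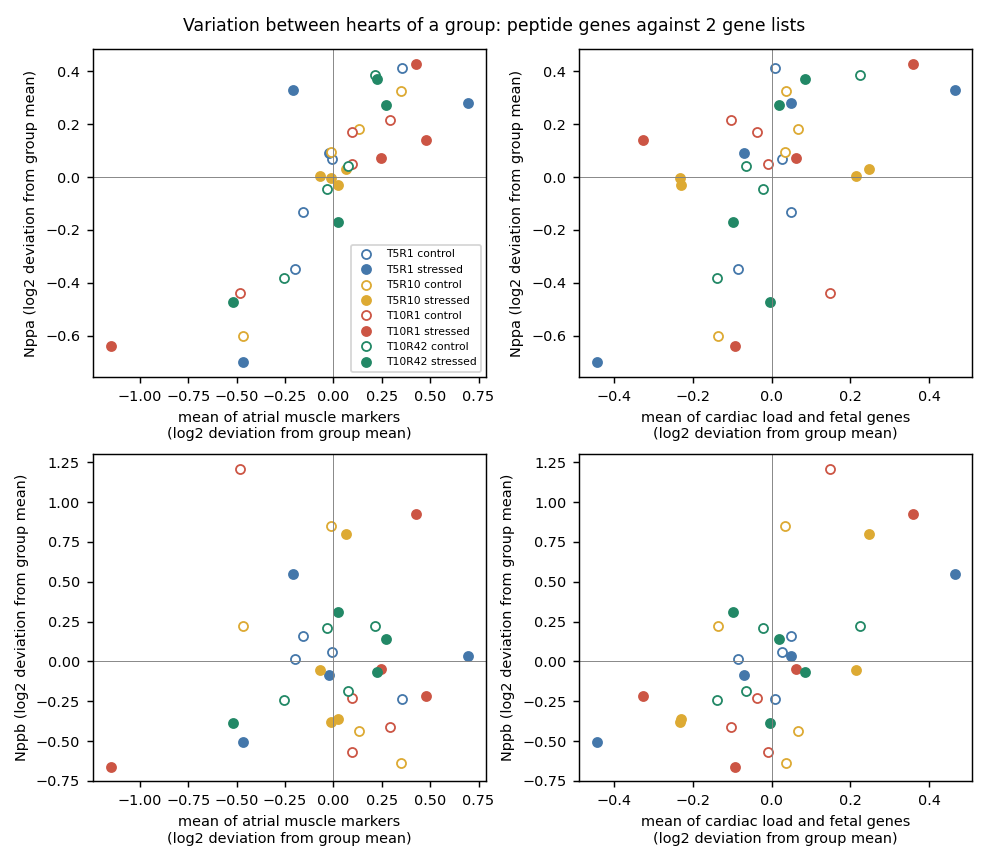
Deviation of Nppa (upper row) and Nppb (lower row) from the group mean (y axes, log2) against the mean deviation of atrial muscle markers (left) and of cardiac load and fetal genes (right, x axes, log2) in 32 hearts; open points are controls, filled points stressed hearts, colours the conditions. Nppa rises along the atrial marker axis (r = 0.85), and Nppb shows no such line (r = 0.05).

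The genes most like each member, by Pearson r of these deviations over 32 hearts and 18300 named genes, were listed by a fixed rule. For Nppa they were Dkk3 (0.89), Gpx3 (0.88) and Lad1 (0.88); Dkk3 is itself one of the 13 atrial markers, and Pam, the enzyme of atrial granules that amidates peptides and another of the 13, was at rank 4 (0.86). Myl4, the atrial light chain, followed at rank 14 (0.82). For Nppb they were Rcan1, a target and inhibitor of calcineurin (0.85), Tnfrsf12a, the TWEAK receptor (0.82), and Slc38a2, an amino acid transporter (0.80). Ankrd1 was at rank 6 (0.74), and Rcan1 and Ankrd1 are both on the load list. The other load genes ranked far lower, from Acta1 at rank 515 (0.43) to Ryr2 at rank 16550 (-0.35). Corin was most like Plin4, a lipid droplet protein (0.78), Xdh, xanthine dehydrogenase (0.77), and Sugp1 (0.76). Furin was most like Dnajb6, Aftph and Hnrnpul2 (0.87 to 0.88), Npr2 like Nudt14, 1700113A16Rik and Exosc5 (0.81 to 0.87), and Npr3 like Atp6v0e2, Slc39a8 and Myg1 (0.74 to 0.86). Npr1, the dim one, reached 0.71 with Cd209f, 0.70 with Mgat5 and 0.69 with Btnl2. The Mgat5 probe was itself well above background on only 11 of 32 arrays, so that value rests largely on signals near background. All these values describe the same hearts on the same arrays and carry no test.

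Between the members themselves, none of 21 pairs passed the adjustment. Nppa and Nppb had r = 0.11 and rho = 0.11 (permutation p = 0.602 and 0.567; adjusted p = 0.808 and 0.7). The most negative pair was Nppb with Corin, at r = -0.58 and rho = -0.53 (permutation p = 0.00749 and 0.0176; adjusted p = 0.157 and 0.185), with 0.15 in T5R1, -0.68 in T5R10, -0.79 in T10R1 and -0.41 in T10R42. The most positive was Nppa with Npr3, at r = 0.53 and rho = 0.48 (permutation p = 0.0149 for both; adjusted p = 0.157 and 0.185), which was 0.34 without the 2 most extreme hearts.

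Of the 13 atrial markers, 4 fell in T5R1, against 8.43% of all tested genes, and the other 9 did not pass. All 13 were measured lower there, with a median of -0.91, and the difference from Nppa (-0.05) was not tested. Those that fell were Kcnj3 and Kcnj5, channels of the acetylcholine-activated potassium current (-0.95 ± 0.15 and -0.48 ± 0.11, SE, limma adjusted p = 0.000162 and 0.00603), Tbx5, a cardiac T-box factor (-0.71), and Stard10 (-1.17). The mean of all 13 per heart, relative to all hearts, was -0.16 to 0.40 in T5R1 controls and -1.25 to -0.08 in stressed hearts. In T10R1 all 13 were again measured lower and none was called by limma, or had an unadjusted p below 0.05, with a median of -0.26 and 1 stressed heart at -1.41. The amount of atrium in each sample was not recorded in the labels used here, and its part in the levels of Nppa and Corin was not tested. Corin's deviation had r = 0.16 with the atrial markers over all hearts (rho = 0.27; permutation adjusted p = 0.849 and 0.595), with 0.79 in T5R1, 0.72 in T5R10, -0.36 in T10R1 and -0.04 in T10R42.

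The promoters of Nppa and Nppb are shown because these neighbours, 13.5 kb apart on chromosome 4 of GRCm38.p6, are both peptide genes of the heart; that of Corin is shown because it fell. Sequences are from RefSeq on GRCm38.p6, whose tables matched all 8 genes, and are given 5′ to 3′ on the gene's own strand. For Corin and Nppa they are the 250 bases before the start of the gene. For Nppb they are 30 bases, 107 to 78 before the start site of the promoter table. The RefSeq gene of Nppb begins further upstream, at base 147985786, so these 30 bases and the Nppb matches lie inside its annotated span. Capitals mark matches, on either strand, to the GATA motifs TGATAA and AGATAA, the MCAT motif CATTCC, the NKX2-5 core site AAGTG and the TATA box TATAAA.
Nppa, chr4:148000472-148000721, plus strand: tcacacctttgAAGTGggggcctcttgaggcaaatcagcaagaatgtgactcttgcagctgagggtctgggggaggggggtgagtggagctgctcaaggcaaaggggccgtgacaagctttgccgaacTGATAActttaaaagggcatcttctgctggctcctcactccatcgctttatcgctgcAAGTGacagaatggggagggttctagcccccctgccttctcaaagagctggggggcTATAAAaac
Nppb, chr4:147985793-147985822, plus strand: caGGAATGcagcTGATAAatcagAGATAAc
Corin, chr5:72504541-72504790, minus strand: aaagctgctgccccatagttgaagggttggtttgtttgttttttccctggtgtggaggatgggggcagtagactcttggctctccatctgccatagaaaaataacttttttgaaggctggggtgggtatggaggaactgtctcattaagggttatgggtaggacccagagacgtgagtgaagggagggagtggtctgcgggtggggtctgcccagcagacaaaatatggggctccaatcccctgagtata
Nppa had 1 TGATAA, 2 AAGTG and 1 TATAAA; the 250 bases before the table's start site of Nppb had 1 TGATAA, 1 AGATAA, 1 CATTCC on the opposite strand, which reads GGAATG above, and 1 TATAAA at 31 to 26 bases before that start site. No match overlapped another. Over the same 250 bases of 32851 promoters, 7.94% held TGATAA, 9.99% AGATAA, 16.6% either of them, 12.6% CATTCC, 40.7% AAGTG and 12.4% TATAAA. The Corin window held none of these letters. A match describes the sequence and is not evidence of a bound site.

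The known regulators of these promoters were listed, and 17 were tested. In T5R1, 3 of them fell and none rose, with a median of -0.13 against -0.12 over all genes: Tbx3 (-0.71 ± 0.16, SE, limma adjusted p = 0.0039) and Tbx5 (-0.71 ± 0.18, SE, limma adjusted p = 0.00926), T-box factors of the conduction system and atria, and Myocd, the muscle coactivator myocardin (-0.32 ± 0.099, SE, limma adjusted p = 0.0291). None of the 17 was called by limma in T5R10, T10R1 or T10R42, where 0, 1 and 1 had an unadjusted p below 0.05. Tbx5 is also on the atrial list. Of all tested genes 8.43% fell in T5R1.

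Downstream of the receptors, 13 genes of cGMP synthesis and action were tested. In T5R1, 2 fell and none rose, where 8.43% of all tested genes fell. The median was -0.12, equal to that of all genes. Rgs2, a brake on G-protein signalling that cGMP-dependent kinase activates, fell by 0.65 on the log2 scale (± 0.13, SE, limma adjusted p = 0.00189). Mrvi1, which encodes a kinase substrate at the calcium store, fell by 0.38 (± 0.12, SE, limma adjusted p = 0.0426). All 4 stressed hearts lay below all controls for both, as for 15.7% of all tested genes in this comparison. Rgs2's stress effect was higher in T5R10 than in T5R1, by 1.00 ± 0.19 (SE, limma adjusted p = 0.00499), where 2.49% of tested genes were called. In T5R10 itself Rgs2 was measured higher in stressed hearts without passing the test (0.35 ± 0.13, SE, limma adjusted p = 0.234). In T10R1 Rgs2 differed by -0.51 (limma adjusted p = 0.0585). Prkg1, the cGMP-dependent kinase itself, was higher over the mean of the 4 conditions (0.22 ± 0.058, SE, limma adjusted p = 0.0158). Rgs2 was lower over that mean (-0.21 ± 0.067, SE, limma adjusted p = 0.0379), where 12.6% of all tested genes were called.

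Of 9 phosphodiesterases, which break cyclic nucleotides down, 1 rose and 1 fell in T5R1, where 13.7% of all tested genes were called. Pde1a, which calcium and calmodulin activate, rose by 0.56 ± 0.10 (SE, limma adjusted p = 0.000707), and it rose in T10R1 by 0.51 ± 0.10 (SE, limma adjusted p = 0.0155). Pde5a, the cGMP-specific enzyme, fell in T5R1 by 0.43 on the log2 scale (± 0.12, SE, limma adjusted p = 0.0129). No phosphodiesterase was called by limma in T5R10 or T10R42, where 3 and 1 had an unadjusted p below 0.05.

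Of 9 tested proteases and enzymes that process or degrade peptides, 1 was called, in T5R1, where 13.7% of all tested genes were called. Pcsk5, a proprotein convertase related to furin, rose in T5R1 by 0.43 ± 0.11 (SE, limma adjusted p = 0.011). In T10R1 it differed by 0.33 (limma adjusted p = 0.167). None of the list was called by limma in T5R10, T10R1 or T10R42, where 0, 1 and 0 had an unadjusted p below 0.05.

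**Figure D4:**
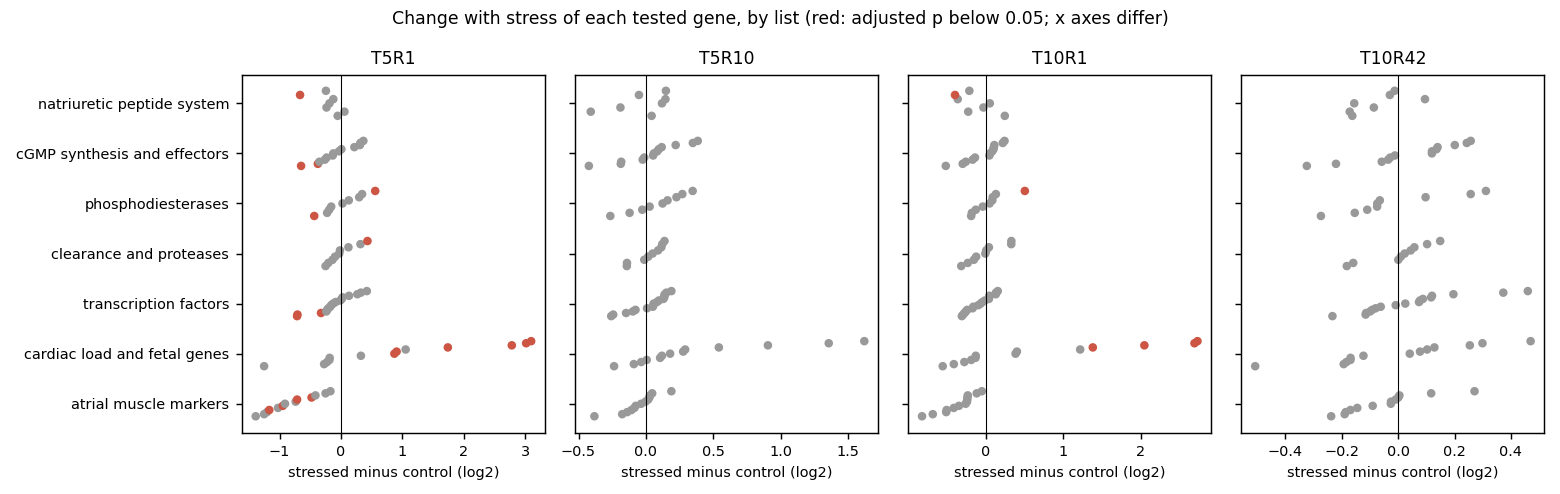
Stressed minus control on the log2 scale (x axes, which differ in range) for every tested gene of 7 groups of genes (y axis) in each condition; red marks an adjusted p below 0.05. In T5R1, red points are Corin among the natriuretic genes, 2 of 13 cGMP genes, 2 of 9 phosphodiesterases, 1 of 9 clearance and protease genes, 3 of 17 transcription factors, 6 of 13 load genes and 4 of 13 atrial markers. Of all tested genes 13.7% were called in T5R1.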

How the data were processed

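Intensity values of single spots were read from the deposited array files. Background subtraction and spatial detrending had been done by Agilent's Feature Extraction software (version 10.7.3.1, per the file headers), and probe positions are on mm9. The other values used from the deposited files are spot flags of 0 or 1. The authors' value table holds log2 values that track the unsubtracted mean signal (correlation at least 0.9995), with column medians of 5.85 (T10R1), 6.03 (T10R42), 6.22 (T5R1) and 6.26 (T5R10); how they were normalised is not given in the sources used here, and the table served as an alternative.

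The processed signal was taken to log2, and the 75th percentile of the array was subtracted. Outlier spots (5470) were dropped and spots of a probe averaged. Probes well above background on at least 3 of 4 arrays of a group and missing on at most 4 arrays were kept (38824 of 55681), with the brightest probe per gene. limma 3.58.1 in R 4.3.3 fitted 8 group means over 32 arrays, two-sided; the script was tested on simulated data. The array number limits precision.

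Members and lists were chosen with earlier results of these data known. The text names all members and the 3 genes most like each member. From the lists it names at most the 4 called genes with the smallest p per contrast, or 2 where none was called. It does not do so for every list and contrast. Called list genes of the differences between conditions and of the mean of 4 were mostly left out. Ankrd1, Pam and Myl4 were named outside this rule in places, after their values were seen, and so were Acta1 and Ryr2 in the ranking for Nppb. Alternatives covered background correction, normalisation, filters, arrays fitted, replicate block, slide row and left-out hearts; leaving out the 4 hearts with lung transcripts and the relations to list means were chosen after seeing the data.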

Additional observations from a re-analysis of the deposited data

Results flagged for a closer look

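Npr2 in T10R1 stressed replicate 1 stood apart from its group. Its log2 level was 2.85 against 2.96 to 2.98 in the other 3 hearts, a gap of 0.84 of the group's range. It was 1 of 56 groups tested for such a gap, and chance marks about 1 in 20. The stress effect on Corin differed between conditions, by 0.61 ± 0.13 (SE; limma adjusted p = 0.0135) for T5R10 minus T5R1.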

How the results depend on the processing

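Corin in T5R1 passed the test under all 11 alternatives (-0.71 to -0.60) and without each single heart (-0.69 to -0.63). In T10R1 the count of called members went from 1 to 0, through Corin, with quantile normalisation (limma adjusted p = 0.0779), in the authors' table (0.052), with no filter on dim probes (0.062), with the arrays of T10R1 alone (0.175), with the replicate number as a block (0.0537) and without the 4 hearts with lung transcripts (0.0666). Without single hearts that count ran from 0 to 1 (Corin -0.43 to -0.33). The count for T5R10 minus T5R1 went from 1 to 0 with the arrays of those conditions alone. Fewer arrays, or more genes tested without the filter, enter such fits; the cause of the other losses was not tested. No other count of called members changed.

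Replicate numbers were not taken to pair the hearts. Of 16 pairs 5 correlated over 0.1, 3 of them in T5R10. Of the 16 stressed hearts 7 correlated best with the control of their own number, against 4 if numbers meant nothing. Hearts of the same number in a condition also shared a slide row, whose part in these correlations was not tested. These counts do not settle whether the numbers pair the hearts. Among the members the block ended 1 call, Corin in T10R1; it was not run for single list genes. With the block, calls over all genes went from 312 to 211 in T10R1, 21 to 0 in T5R10, 686 to 396 for T5R10 minus T5R1 and 163 to 33 for T10R1 minus T5R1. The T10R1 number was 183 with quantile normalisation, 181 without the filter, 198 without the lung hearts and 4 with the arrays of T10R1 alone; in T5R1 it went from 3778 to 2398 without the lung hearts.

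Signs turned only for changes that were not called. Nppa in T5R1 was 0.16 with quantile normalisation and 0.18 in the authors' table. Npr1 in T10R42 was 0.076, 0.032 and 0.0050 with those and without the lung hearts. Without the lung hearts, T10R42 gave 0.0051 for Corin, 0.0018 for Furin and 0.022 for Nppa, and with normexp background correction 0.0087 for Corin and 0.039 for Furin. Without the 3 arrays marked for evaluation, Corin in T5R10 was 0.030. Without single hearts, Nppb ran from -0.53 to 0.18 in T10R1 and -0.13 to 0.23 in T5R1, Npr1 from -0.14 to 0.085 in T10R1 and -0.21 to 0.013 in T10R42, and Furin from -0.072 to 0.076 in T10R42. Nppa ran from -0.16 to 0.15 in T5R10 and -0.17 to 0.18 in T5R1, and Corin from -0.15 to 0.043 in T5R10 and -0.070 to 0.0053 in T10R42. Dim signal limits Npr1 and Nppc.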
